A study of Homo sapiens with 6 samples.

Results

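The group described here holds 10 genes: ISG15, its activating, conjugating and ligating enzymes UBA7, UBE2L6 and HERC5, the HERC5 relative HERC6, the ISG15 protease USP18, and the interferon-inducible genes IFI6, IFI27, IFI44 and IFI44L. They were chosen by exact gene symbol, and all 10 were found. IFI44 and IFI44L are neighbours on chromosome 1 that the authors' table joins into 1 locus with 1 value, so the 10 genes stand at 9 of the 27678 named loci of the table. MCF10A is a non-tumorigenic human mammary epithelial cell line, and it was transfected with 30 nM of siRNAs for 72 hours. The control group received non-targeting siRNAs (siNT) and the other siRNAs against the transcription factor PAX9 (siPAX9), with 3 samples in each group; all samples came from this 1 line and all went through transfection. The comparison asks which mRNAs differ in level after depletion of PAX9. Each group received its own siRNAs, so depletion of PAX9 and any other effect of the siRNAs used cannot be told apart here. The table gives 1 FPKM (a read density, the fragments of a transcript divided by its length and by the library's mapped reads) per locus and group, in which the 3 samples are already combined. No spread between samples can be had from it, no value below carries an error, and no difference below was tested.

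ISG15 is a small ubiquitin-like protein that cells make in response to interferon and attach to other proteins. UBA7 activates it, UBE2L6 carries it, HERC5 is the main human ligase that attaches it, and USP18 removes it again and also dampens signalling at the interferon receptor. HERC6 is a close relative of HERC5. IFI6 and IFI27 are small hydrophobic proteins of 1 family, and IFI44 and IFI44L are relatives of each other; all 4 genes are long known as interferon-induced. Interferons bind surface receptors, whose kinases activate transcription factors, and STAT2 among them joins IRF9 in a complex that binds the interferon-stimulated response element (ISRE) in promoters.

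The promoters are shown first, because the ISRE is the sequence by which these genes are usually known. Each promoter window ran from 250 bases before the transcription start to 50 bases after it, taken from RefSeq on GRCh38.p14. Of the 10 genes, 8 were matched, and UBA7 and USP18 were not analysed here. UBE2L6, IFI27 and IFI44 have 2 listed windows each, and only the first listed one is described. Exact matches to an ISRE-type motif, GAAA and GAAA parted by any 2 bases, were searched on both strands. Such a match was present in 6 of the 8 windows, against 3.65% of all 27305 listed windows. Of the 9690 first listed windows of genes at named loci that reached 1 FPKM in either group, 2.88% held one. The stretches around the matches are printed 5′ to 3′ on the strand of the gene, with the matched bases in capitals and overlapping matches run together. On the opposite strand the motif reads TTTC and TTTC, again parted by 2 bases. HERC6 is added for comparison with its neighbour HERC5 and holds no match.
ISG15 (chr1:1013364-1013419, plus strand): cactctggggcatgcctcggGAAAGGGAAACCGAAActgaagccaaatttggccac
HERC5 (chr4:88456974-88457074, plus strand): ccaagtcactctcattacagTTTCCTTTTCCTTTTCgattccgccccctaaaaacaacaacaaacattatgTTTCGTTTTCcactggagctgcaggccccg
HERC6 (chr4:88378692-88378811, plus strand): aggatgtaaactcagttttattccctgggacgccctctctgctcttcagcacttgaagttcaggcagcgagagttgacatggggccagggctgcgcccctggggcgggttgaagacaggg
IFI6 (chr1:27672256-27672368, minus strand): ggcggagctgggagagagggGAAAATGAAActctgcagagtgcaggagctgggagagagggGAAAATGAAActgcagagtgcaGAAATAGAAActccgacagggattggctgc
IFI27 (chr14:94110608-94110670, plus strand): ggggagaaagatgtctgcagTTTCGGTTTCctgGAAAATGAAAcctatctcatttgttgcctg
IFI44 (chr1:78649751-78649788, plus strand): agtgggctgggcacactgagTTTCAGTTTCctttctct
IFI44L (chr1:78620264-78620404, plus strand): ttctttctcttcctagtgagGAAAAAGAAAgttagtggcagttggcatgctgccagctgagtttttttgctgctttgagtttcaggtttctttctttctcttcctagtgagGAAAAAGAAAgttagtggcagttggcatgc

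ISG15 held 2 overlapping matches, the first beginning at position -113 from the start. IFI6 held 3 matches, beginning at -156, -115 and -93, and IFI44L held 2 copies of the same 10 bases. IFI27 held 1 match on each strand, and a match to TTCNNNGAA, the GAS sequence of interferon gamma responses, overlapped both of them. GAS matches were otherwise absent from the members' windows, and 7.88% of all listed windows held one. HERC5 held 3 matches on the opposite strand, 2 of them overlapping. The window of HERC6 and the first listed window of UBE2L6 held none. A match describes the letters in these windows only and was not linked to binding.

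**Figure D1:**
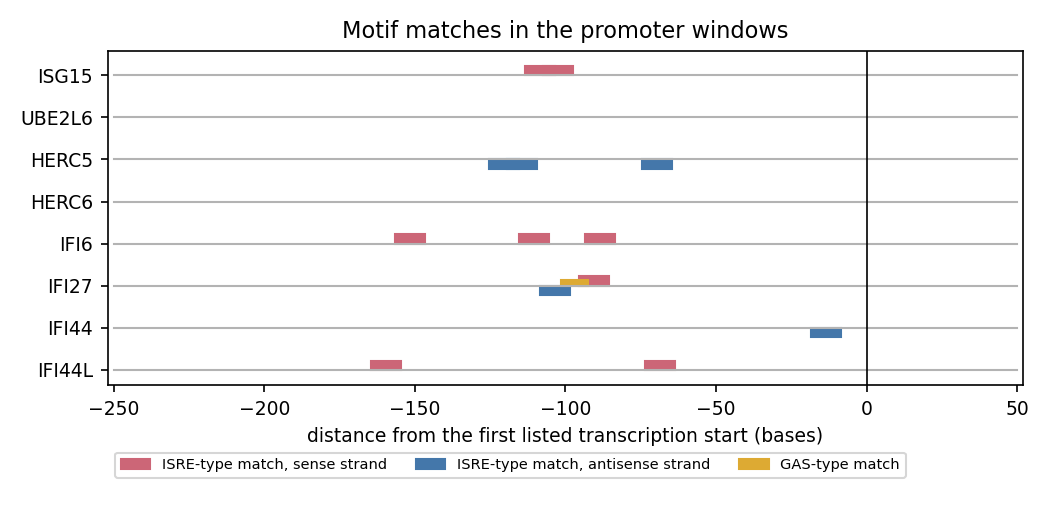
ISRE-type and GAS-type matches in the promoter windows of the 8 matched genes, plotted by distance in bases from the first listed transcription start (0); boxes above a line are on the strand of the gene and boxes below it on the opposite strand. ISRE-type matches stand in 6 of the 8 windows, all of them before the start, and UBE2L6 and HERC6 have none.

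ISG15 itself stood at 7.13 FPKM in siNT and at 65.4 FPKM in siPAX9, which is 9.18-fold higher in siPAX9 (3.20 on the log2 scale). Its locus lies on chromosome 1 from 948847 to 949919 (UCSC hg19, as all positions of loci here, counted from 1). The activating enzyme UBA7 (chromosome 3, 49842638 to 49851391) stood at 2.48 FPKM in siNT and at 11.2 FPKM in siPAX9, 4.52-fold higher in siPAX9. The microRNA gene MIR5193 lies inside UBA7 and shares its value. Modifier and activating enzyme were thus both higher in siPAX9.

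The conjugating enzyme UBE2L6 stood apart from them. UBE2L6 (chromosome 11, 57319128 to 57335803) stood at 17.0 FPKM in siNT and at 17.5 FPKM in siPAX9, a ratio of 1.03. In siNT, UBE2L6 had the highest level of the 9 loci and ISG15 reached 0.42 times its FPKM. In siPAX9 the order was turned, with ISG15 at 3.73 times the FPKM of UBE2L6.

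HERC6 and the ligase gene HERC5 are neighbours on chromosome 4. HERC6 (89299891 to 89364249) stood at 0.868 FPKM in siNT and at 9.24 FPKM in siPAX9, 10.6-fold higher in siPAX9 (3.41 on the log2 scale). HERC5 (89378268 to 89427319) stood at 0.354 FPKM in siNT and at 0.450 FPKM in siPAX9, so it stayed below an FPKM of 1 in both groups. The authors' table also marks HERC5, alone among the members, as having too few reads for their own comparison. HERC6 was at 2.45 times the FPKM of HERC5 in siNT and at 20.5 times in siPAX9. The promoter window of HERC5, printed above, held 3 ISRE-type matches and that of HERC6 held 0.

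The protease USP18 (chromosome 22, 18632758 to 18660162) stood at 0.904 FPKM in siNT and at 2.01 FPKM in siPAX9, 2.23-fold higher in siPAX9. This was the smallest difference among the members that were at least 2-fold higher. With 1 added to each FPKM it came to 0.66 on the log2 scale, under 2-fold. The value is also uncertain because USP18 has a near-identical copy, USP41: of the 76-base stretches (the read length) of the USP18 transcript, 20.9% were also present in USP41. ISG15 was at 7.89 times the FPKM of USP18 in siNT and at 32.5 times in siPAX9.

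IFI6 and IFI27 had the largest log2 differences of the 9 loci, and the IFI44 locus came after HERC6, an order that was turned with 1 added to each FPKM (3.03 for IFI44 and 2.45 for HERC6). IFI6 (chromosome 1, 27992572 to 27998724) stood at 10.7 FPKM in siNT and at 339 FPKM in siPAX9, 31.5-fold higher in siPAX9 (4.98 on the log2 scale). In siNT, 6194 named loci had a higher FPKM than IFI6, and in siPAX9 157 had. IFI6 overlaps an unnamed antisense RNA gene over 2746 bases, and 19.1% of its 76-base stretches were shared with the overlapping RNA gene LINC02574. Whether the counting used the strand of the reads is not stated in the sources used here, so reads of the antisense gene could not be told apart from reads of IFI6. LINC02574 lies on the same strand, and reads from the shared stretches could belong to either gene whether or not strand was used.

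IFI27 (chromosome 14, 94577079 to 94583036) stood at 4.93 FPKM in siNT and at 111 FPKM in siPAX9, 22.4-fold higher in siPAX9 (4.49 on the log2 scale). The joint locus of IFI44 and IFI44L (chromosome 1, 79086067 to 79129769) stood at 6.35 FPKM in siNT and at 59.1 FPKM in siPAX9, 9.32-fold higher in siPAX9. How much of that value belongs to either gene cannot be read from the table. All 3 IFI loci had a higher FPKM than UBA7 and USP18 in both groups, and all 3 passed UBE2L6 only in siPAX9.

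**Figure D2:**
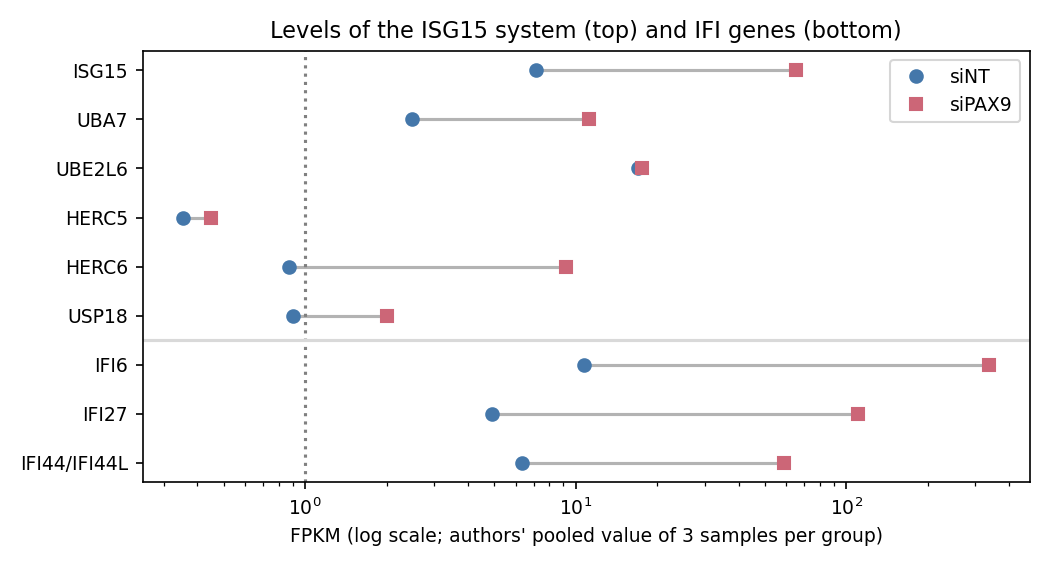
FPKM of the 9 loci in siNT (circles) and siPAX9 (squares) on a log axis, each the authors' pooled value of 3 samples, with no error bars because no values per sample were available; the dotted line marks an FPKM of 1. The siPAX9 value lies far to the right of the siNT value for ISG15, UBA7, HERC6 and the 3 IFI loci, a short way for USP18, and nearly on it for UBE2L6 (17.0 and 17.5), while HERC5 stays left of the line.

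Read together, 7 of the 9 loci were at least 2-fold higher in siPAX9, counting only loci that reached 1 FPKM in either group, and 0 were at least 2-fold lower. Over all 12965 named loci within the same limit, 7.79% were at least 2-fold higher and 7.25% at least 2-fold lower. UBE2L6 was within 2-fold, and HERC5 did not reach the FPKM limit. At 4-fold, 6 loci were higher in siPAX9, all of the 7 but USP18, against 3.22% of all named loci. HERC6 and USP18 reached an FPKM of 1 only in siPAX9, so they had to be higher there to be counted. Of the 6 member loci that reached 1 FPKM under both siRNAs, 5 were at least 2-fold higher, against 4.21% of the 11890 named loci of that kind. The 8 loci within the first limit had a median log2 difference of 3.21, and the 12965 named loci had a median of -0.06.

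Of all 12965 loci, 142 had a larger log2 difference than IFI6, 160 than IFI27, 210 than HERC6, 230 than the IFI44 locus, 232 than ISG15 and 367 than UBA7. USP18 lay lower in this order, with 851 loci above it, and UBE2L6 had 5418 above it.

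**Figure D3:**
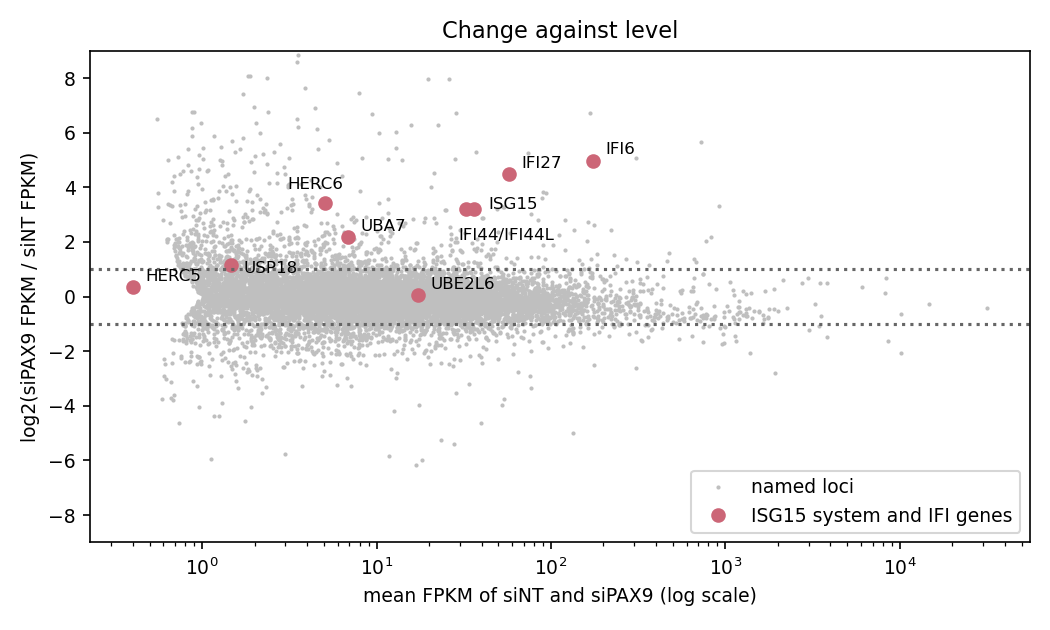
Log2 ratio of siPAX9 FPKM to siNT FPKM (vertical axis) against the mean FPKM of both groups (log axis) for 12826 named loci (grey) and the 9 loci described (large points); 139 loci listed at 0 in a group or beyond 9 on the vertical axis are not drawn, and dotted lines mark 2-fold. IFI6 and IFI27 stand at 4.98 and 4.49, and 142 and 160 named loci, drawn or not, have a larger difference. UBE2L6 stands at 0.05 within the bulk.

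Depletion of the target was visible in the same table: PAX9 stood at 2.80 FPKM in siNT and at 0.325 FPKM in siPAX9. The basal keratin KRT5 was at 1558 and 1807, and all 9 epithelial markers reached 1 FPKM, of which CDH1 was at least 2-fold higher in siPAX9 (45.3 and 124) and EPCAM at least 2-fold lower (34.3 and 16.7). Of 9 leukocyte markers, 2 reached 1 FPKM, the myeloid genes CD14 and CSF1R, and both were at least 2-fold higher in siPAX9. CSF1R reached it only in siPAX9, so it had to be higher there to be counted. Over all named loci, 7.79% were at least 2-fold higher and 7.25% lower. The summed FPKM of the 9 leukocyte markers was 15.4 in siNT and 62.0 in siPAX9. CD14 supplied most of that sum, at 14.4 and 56.5, CSF1R was at 0.699 and 4.69, and the myeloid integrin ITGAM was at 0.234 and 0.691. CD3E and NCR1 were listed at 0 in both groups, and the pan-leukocyte gene PTPRC was at 0.0166 and 0.0922. Of 7 fibroblast and endothelial markers 2 reached an FPKM of 1, COL1A1 (0.454 in siNT, 4.13 in siPAX9) and PECAM1 (2.58 and 0.495). COL1A1 reached it only in siPAX9 and PECAM1 only in siNT. The part of other cell types in the results was not tested; in bulk RNA, more cells that express a gene and more RNA per cell cannot be told apart.

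Other genes of the interferon system were taken from lists. Of 15 antiviral effector genes, 13 reached 1 FPKM in either group, and 7 of these were at least 2-fold higher in siPAX9 and 0 lower, with a median log2 difference of 1.26. Of the 8 that reached it under both siRNAs, 3 were higher, with a median of 0.91, so 4 of the 7 (IFIT1, MX1, OAS2 and RSAD2) entered only through siPAX9. The largest were IFIT1 (FPKM 0.571 in siNT and 12.2 in siPAX9), whose protein binds foreign RNA ends, and MX1 (0.170 and 2.73), an antiviral GTPase. OAS2, which makes the activator of RNase L, was at 0.574 and 6.05, and IFIT3 was at 4.08 and 17.7. Of 38 further interferon-stimulated genes, 34 reached the limit, of which 10 were at least 2-fold higher and 1 at least 2-fold lower, with a median of 0.44. CMPK2, SAMD9L, SAMD9 and DDX60 were the largest of these, with log2 differences of 3.17, 3.02, 2.86 and 2.59. The immunoproteasome subunit PSMB9 was the lower one at -1.01. CMPK2 (0.222 FPKM in siNT), SAMD9L (0.384), LGALS9 and CXCL10 reached 1 FPKM only in siPAX9, so they had to be higher there. With 1 added to each FPKM, SAMD9 (2.64) and DDX60 (1.87) came before SAMD9L (1.58) and CMPK2 (1.30). Of the 30 loci of this list that reached 1 FPKM under both siRNAs, 6 were higher and 1 lower, with a median of 0.39.

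Put together, 17 of the 47 loci of these 2 lists within the limit were at least 2-fold higher (36.2%, against 7.79% of all named loci). Of those that reached 1 FPKM under both siRNAs, 9 of 38 were, against 4.21%. The median log2 difference of the 47 loci was 0.79, and that of the 38 was 0.49. ISG15, HERC6, UBA7, USP18 and the 3 IFI loci lay above both medians, and UBE2L6 (0.05) lay below both. In promoter windows, the ISRE-type match was present in 8 of 11 matched effector genes and in 21 of 34 matched further genes.

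Ligands, receptors and signalling genes were taken next. Of 10 interferon genes in the table, only IFNE, an interferon of epithelia, reached an FPKM of 1, at 1.13 in siNT and 1.36 in siPAX9. IFNB1 was at 0.0547 and 0.0566, and IFNL1 and IFNL2 were listed at 0 in siNT and at 0.0597 and 0.0735 in siPAX9. Of the 13 receptor and signalling loci within the limit, IRF9 and SOCS1 were at least 2-fold higher and IFNGR2 and SOCS3 at least 2-fold lower, with a median of -0.04, against 7.79% and 7.25% of all named loci. SOCS1 reached 1 FPKM only in siPAX9; of the 12 loci that did under both siRNAs, 1 was higher. The IRF9 locus, joined with RNF31, stood at 14.0 FPKM in siNT and at 29.4 FPKM in siPAX9. Its partner STAT2 (11.2 and 18.2), singled out after its values were seen, was under 2-fold higher. The feedback inhibitors of cytokine signalling differed in direction, with SOCS1 at 0.506 and 2.41 and SOCS3 at 21.0 and 3.32. IFNGR2, a chain of the interferon gamma receptor, was at 99.5 and 35.4.

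Among 6 IRF genes within the limit, IRF7, which is itself interferon-induced, was the only one at least 2-fold higher (1.73 in siNT and 8.28 in siPAX9) and 0 were lower. Of 8 nucleic acid sensing genes within the limit, DDX58 (RIG-I) was at least 2-fold higher, at 3.92 and 8.85. TMEM173 (STING) was at least 2-fold lower, at 36.1 and 10.5. Over all named loci within the limit, 7.79% were at least 2-fold higher and 7.25% lower. The IRF and sensing counts lie near these shares in lists this short. Of 13 other genes named for interferon, 3 were at least 2-fold higher and 2 lower, with a median of 0.15. The higher ones were IFIT1, IFIT2 and IFIT3, which the effector list also holds. IFIT1 reached 1 FPKM only in siPAX9, and of the 12 loci that did under both siRNAs, 2 were higher and 2 lower. Over all named loci of that kind, 4.21% were higher and 5.79% lower. The lower ones were the membrane proteins IFITM2 (811 in siNT and 278 in siPAX9) and IFITM3 (1353 and 631).

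The last 3 lists held related enzymes, modifiers and relatives of the members; over all named loci, 7.79% were at least 2-fold higher and 7.25% lower, so counts of 0 in lists this short lie near the background. Of 6 other enzymes tied to ISG15, among them its ligase TRIM25, 0 were at least 2-fold apart and the median was -0.13. Of 9 ubiquitin-like modifiers within the limit (SUMO, NEDD8 and others) 0 were at least 2-fold apart, with a median of -0.28. Of 9 relatives of the members by sequence family, also 0 were, with a median of 0.36.

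**Figure D4:**
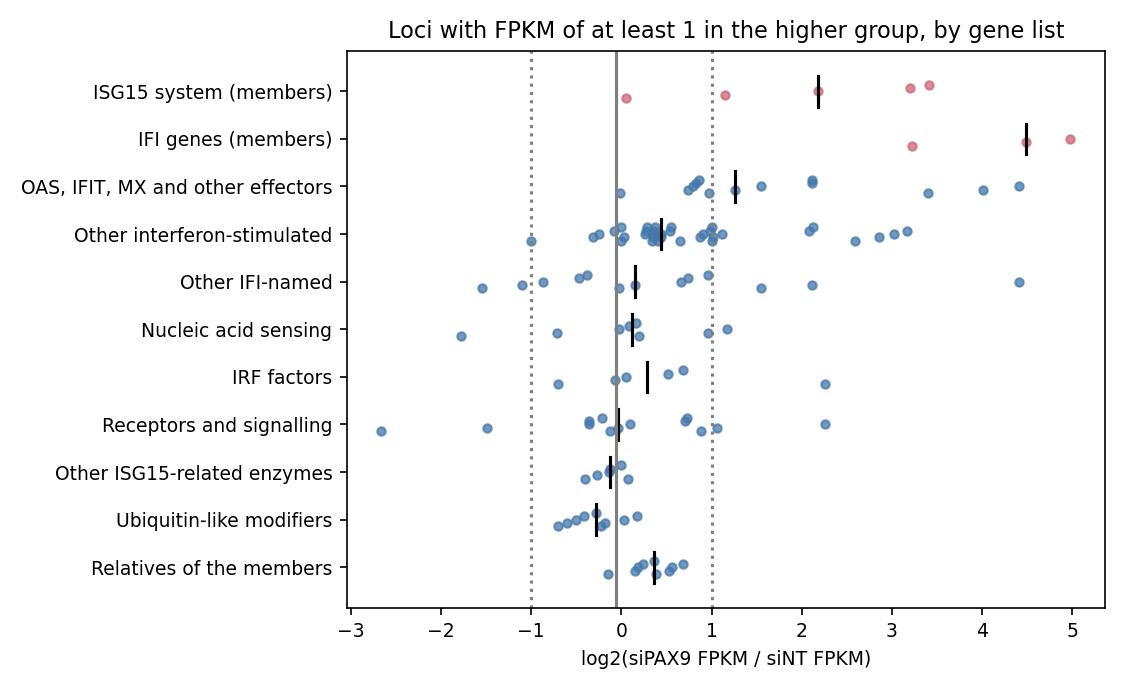
Log2 ratio of siPAX9 FPKM to siNT FPKM for each locus that reached 1 FPKM in either group, by gene list; points are loci, black bars list medians, the grey line the median of all named loci (-0.06), and dotted lines 2-fold. The medians of the ISG15 system (2.18) and of the IFI genes (4.49) lie to the right of those of the effectors (1.26) and of the other interferon-stimulated genes (0.44), and the ubiquitin-like modifiers lie between the dotted lines.

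Genes beside the members on the chromosome were compared next. For each member locus, the nearest 2 named loci on each side that were no members and reached 1 FPKM in either group were taken, whatever their distance, 32 in all. Of these, 2 were at least 2-fold higher and 3 at least 2-fold lower, with a median log2 difference of 0.09, and both counts lie near the shares over all named loci (7.79% and 7.25%). IFI27L1 and IFI27L2, relatives of IFI27 on either side of it, had log2 differences of 0.69 and 0.56 against 4.49 for IFI27. AGRN, which starts 5584 bases past ISG15, was at 60.6 in siNT and 77.5 in siPAX9 (0.35). HERC3, past HERC5, had a log2 difference of 0.38. The higher neighbours were PTGFR (1.56), 79681 bases from the IFI44 locus, and PRODH (2.00), 240074 bases from USP18. The lower ones were SLC43A1 (-3.62), TRAIP (-1.71) and SERPINA1 (-2.30).

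Loci without a symbol within 20 kb of a member were also examined, a search chosen after the data had been seen. Downstream of IFI44 stood 8 such loci, from 79132431 to 79142587 on chromosome 1, starting 2662 to 11777 bases past the end of the IFI44 locus, and 0 of them lay in an annotated gene. Their FPKM lay between 0 and 0.110 in siNT and between 0.627 and 1.93 in siPAX9. All 8 were at least 2-fold higher in siPAX9, where 25.9% of all loci without a symbol and with FPKM above 0 were. For the 6 not listed at 0 in siNT the ratio was 9.48 to 21.2, against 9.32 for the IFI44 locus itself. Past ISG15, a locus of 348 bases from 955003 to 955350, before the start of AGRN, stood at 1.28 FPKM in siNT and at 9.28 FPKM in siPAX9, a ratio of 7.24. A second one, from 944258 to 944773 and inside the annotated span of ISG15, was at 0.388 and 1.13. The strand of these loci is not given.

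**Figure D5:**
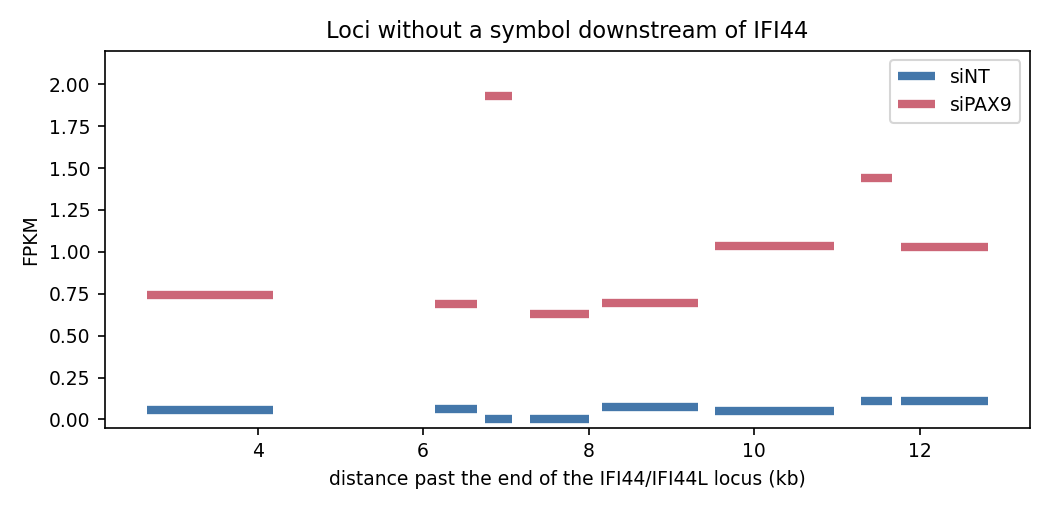
FPKM in siNT (blue) and siPAX9 (red) of the 8 loci without a symbol past the end of the IFI44 and IFI44L locus; each bar spans its locus on the distance axis (kb). All 8 lie at or under 0.110 in siNT and at or above 0.627 in siPAX9.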

How the data were processed

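Poly(A)+ RNA of 6 MCF10A samples was sequenced as single-end reads of 76 bases. Within Partek Flow the authors used Bowtie 2 for alignment (genome UCSC hg19) and Cufflinks for quantification, and deposited 1 FPKM per locus and group. How libraries were scaled against each other, and whether strand was used, is not given in the sources used here. The table also holds the authors' own comparison (log2 fold change, test statistic, p-value, q-value and a mark of significance), which was not used. It gives no counts, so the number of reads behind each value cannot be read from it, and the precision of the values was not assessed.

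The log2 ratio of siPAX9 to siNT FPKM was computed with no value added. Of the 27678 named loci, 19769 were above 0 in either group and the others have no ratio. Loci that reached 1 FPKM in either group were counted at 2-fold. Members were matched by exact symbol. Members and lists were chosen with earlier results of these data known. Genes were named if they were members, neighbours, PAX9, or list genes at least 2-fold apart (at most 4 per direction); cell markers, interferons and other list genes given with values were singled out afterwards. Loci starts, counted from 0 in the table, were raised by 1. Positions, overlaps and shared 76-base stretches came from GENCODE release 44 on GRCh37, and promoters from RefSeq (GRCh38.p14). The counting and the motif search were tested on simulated data. Python 3.11.15, pandas 2.3.3, numpy 2.4.6 and matplotlib 3.10.9 were used. The alternatives were other folds and FPKM limits, 1 added to each FPKM, centring, summing rows and a looser motif.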

Additional observations from a re-analysis of the deposited data

Results flagged for a closer look

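Loci without a symbol near ISG15 and IFI44 were looked at because they lie outside the named loci and had a higher FPKM in siPAX9 than in siNT. Downstream of IFI44, in order along chromosome 1, the FPKM in siPAX9 was 0.745, 0.691, 1.93, 0.627, 0.696, 1.04, 1.44 and 1.03, while the highest value in siNT was 0.110. The third and the fourth of them were listed at 0 in siNT. Downstream of ISG15 the FPKM in siPAX9 was 9.28, and at the locus before the ISG15 locus it was 1.13. These 10 of the 14 loci without a symbol within 20 kb of a member are described because they were higher, so their number is no result; over all loci without a symbol and with FPKM above 0, 25.9% were at least 2-fold higher.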

How the results depend on the processing

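The count of 7 member loci at least 2-fold higher in siPAX9 stayed between 5 and 7 under every alternative, with 0 lower, and the median log2 difference lay between 2.74 and 3.27. USP18 left the count at 4-fold, with 1 added to each FPKM and with a limit of 5 FPKM, and the requirement of 1 FPKM under both siRNAs, chosen after the data were seen, removed HERC6 and USP18. With 1 added to each FPKM the log2 difference of HERC6 was 2.45 in place of 3.41. The share of all named loci at least 2-fold apart, 15.04% in either direction, depended more on the settings: it was 31.7% at 1.5-fold, 4.93% at 4-fold, 9.80% with 1 added to each FPKM, 29.8% with no FPKM limit and 10.0% among loci that reached 1 FPKM under both siRNAs. After centring, 8.45% of named loci were at least 2-fold higher and 6.53% lower. A 1-base spacer in the ISRE-type motif left 6 of 8 members with a match and raised the share of all windows to 6.55%. No paired analysis was possible because the table holds 1 pooled value per group, and for the same reason no replicate could be left out. Without counts, the number of reads behind the low values (HERC5, HERC6 and USP18 in siNT) is unknown, and their precision was not assessed.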

Other observations

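Genes of the effector, further interferon-stimulated and ubiquitin-like lists that stayed below 1 FPKM in both groups entered no count, and all 7 are given here. UBD, a ubiquitin-like modifier induced by cytokines, was at 0.0567 FPKM in siNT and 0.528 FPKM in siPAX9. MX2, an antiviral GTPase, was at 0.0147 and 0.177 FPKM, XAF1 at 0.0103 and 0.255 FPKM, and RTP4 at 0.102 and 0.947 FPKM. The chemokine CXCL11 was at 0.117 and 0.230 FPKM and EPSTI1 at 0.0337 and 0.0384 FPKM. The chemokine CCL5 lay in the other direction, at 0.605 FPKM in siNT and 0.398 FPKM in siPAX9. At these levels the number of reads behind a value is unknown, and no difference was tested.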
